A study of Saccharomyces cerevisiae with 32 samples.

Results

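Poly-A RNA of budding yeast (Saccharomyces cerevisiae) growing in galactose was compared between a tps1 mutant strain (DBY12383) and a wild-type strain (WT, DBY12000) just before glucose or fructose was added. The comparison rests on 4 of the 32 libraries of the study: 2 of tps1 and 2 of WT, all taken at 0 min. In each strain 1 of these libraries opened a course that later received fructose and the other opened a course that later received glucose. The cultures had grown overnight in yeast nitrogen base with 2% galactose and were sampled in log phase, per the labels at an OD600 between 0.230 and 0.273. The other 28 libraries followed both strains from 3 to 120 min after a sugar had been added to 2%. How the tps1 allele was made, whether the mutant strain is 1 clone, and whether the 2 libraries of a strain came from separate cultures are not given in the sources used here. The p-values therefore measure only the spread between these libraries, which may be technical. The description of the tps1 library of the fructose course carries a mark (trd) that the labels do not explain.

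TPS1 encodes trehalose-6-phosphate synthase, which joins UDP-glucose and glucose 6-phosphate to trehalose 6-phosphate. TPS2 then removes the phosphate, and the product trehalose is a storage sugar and stress protectant. Trehalose 6-phosphate also restrains hexokinase, and tps1 mutants are known to grow on galactose but to fail when glucose or fructose rushes into glycolysis. Galactose enters glycolysis by the Leloir pathway (GAL1, GAL7 and GAL10) and not through hexokinase.

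Levels are the deposited FPKM, which are fragments per kilobase of transcript after a scaling between libraries that the sources do not detail. Differences are tps1 minus WT on the log2(FPKM + 1) scale. That scale understates differences of genes near 1 FPKM. Of 6717 genes in the table, 5522 entered the fit, being matched to the annotation, 300 bp or longer, and averaging 1 FPKM or more across the 32 libraries. A gene was called when limma gave a Benjamini-Hochberg adjusted p under 0.05 over these 5522 genes and the difference was at least 2-fold. Where 2 values are given for a strain, the first is from the library of the fructose course and the second from that of the glucose course. Depth, inferred from the steps between low values, was about 6.26 and 6.57 M fragments in tps1, against 7.73 and 6.85 M fragments in WT. The median of all genes lay at -0.000185, and the medians of the 16 chromosomes lay between -0.0239 and 0.0324. The 2 libraries of a strain correlated across genes at r = 0.993 in tps1 and 0.994 in WT on the log2 scale, which describes their likeness across genes that are not independent replicates.

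The labels were checked first. TPS1 (YBR126C, chrII:488905-490392, reverse strand, sacCer3) had 0.156 and 0.236 FPKM in tps1, against 279 and 326 FPKM in WT. These correspond to about 2 and 3 fragments in tps1, against 4156 and 4027 fragments in WT. The difference was -7.98 ± 0.13 (SE, n = 2 per strain, limma adjusted p = 2.15e-10), and it was the only call of 37 that stood under all 14 alternatives tried. None of the 3 genes on either side of TPS1 was called: log2 differences ran from -0.35 (ATG14) to 0.25 (PTC4). Both strains showed the galactose state. The galactokinase gene GAL1 had 9966 and 10515 FPKM in tps1, against 9338 and 10387 FPKM in WT, and the galactose permease gene GAL2 had 6285 and 7448 FPKM in tps1, against 6465 and 7979 FPKM in WT. Genes specific to a mating type were read in both strains. The MATa-specific alpha-factor receptor gene STE2 had 344 and 378 FPKM in tps1, against 511 and 558 FPKM in WT. Of the 4 MATalpha-specific genes, the alpha-factor gene MF(ALPHA)1 did not pass 1.28 FPKM in any library, and the other alpha-factor gene MF(ALPHA)2 had 14.4 and 14.6 FPKM in tps1, against 12.2 and 15.5 FPKM in WT. The agglutinin gene SAG1 had 30.2 and 33.99 FPKM in tps1, against 30.7 and 31.7 FPKM in WT, and the a-factor receptor gene STE3 had 8.12 and 7.35 FPKM in tps1, against 6.10 and 8.91 FPKM in WT. The strains overlapped in all 4. The marker genes URA3, LEU2, HIS3, TRP1 and LYS2, which laboratory strains often lack, were read in all 4 libraries, with none of the 11 genes of that list called.

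The strains differed in few genes before sugar, and mostly in 1 direction. Of 5522 genes 37 were called (0.67%), with 7 higher in tps1 (0.127%) and 30 lower in tps1 (0.543%). With libraries scaled to equal FPKM sums the split was 10 higher and 20 lower. The genes lower in tps1 included 3 isozyme genes of lower glycolysis, 4 genes of the iron uptake regulon, 4 general stress genes, 2 genes under nitrogen catabolite control and the plasma membrane protein gene pair YRO2 and MRH1. The genes higher in tps1 included the respiratory growth gene RGI2, the carbonic anhydrase gene NCE103 and the meiotic gene CSM4. At an adjusted p under 0.05 and any fold 127 genes differed (2.3%), 41 higher and 86 lower, and at an unadjusted p under 0.05 the counts were 334 and 454. In 1172 genes both tps1 values lay above both WT values (21.2%), and in 1311 both lay below (23.7%).

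The calls lean on an estimate of spread from 2 libraries per strain. They were made on these same values, so strains that do not overlap in a called gene add no support to its call. When short and unmatched genes, whose libraries scatter far more, shared the fit, 4 of the 37 genes were still called (TPS1, YRO2, RGI2 and YNL134C), and 21 of the 37 stood whichever of the 4 libraries was left out.

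**Figure D1:**
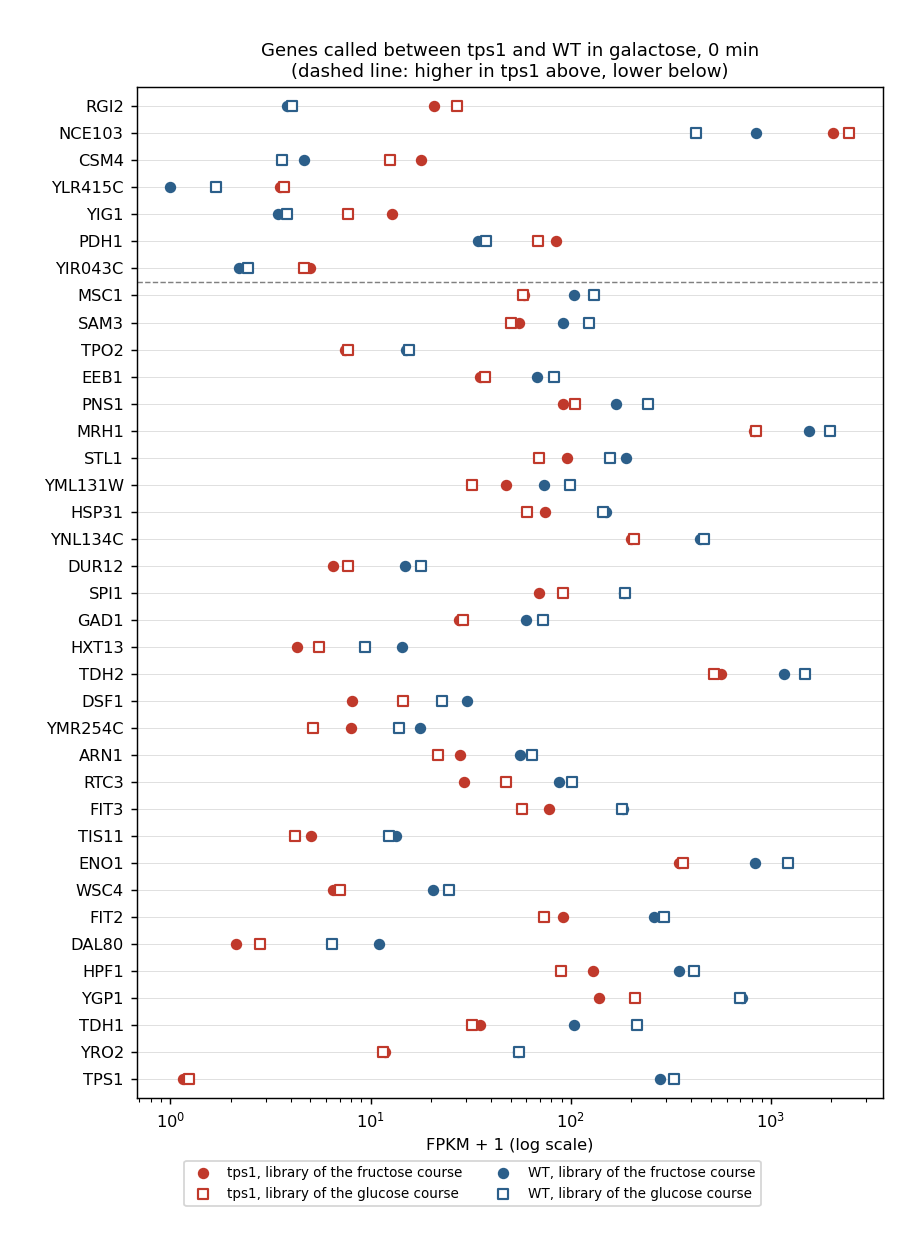
FPKM + 1 on a log axis for the 37 called genes in the 4 galactose libraries, tps1 in red and WT in blue, filled circles for libraries of the fructose course and open squares for those of the glucose course. The 7 genes above the dashed line are higher in tps1 and the 30 below it are lower. The strains do not overlap in any of them, which follows largely from calling genes on these same values.

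**Figure D2:**
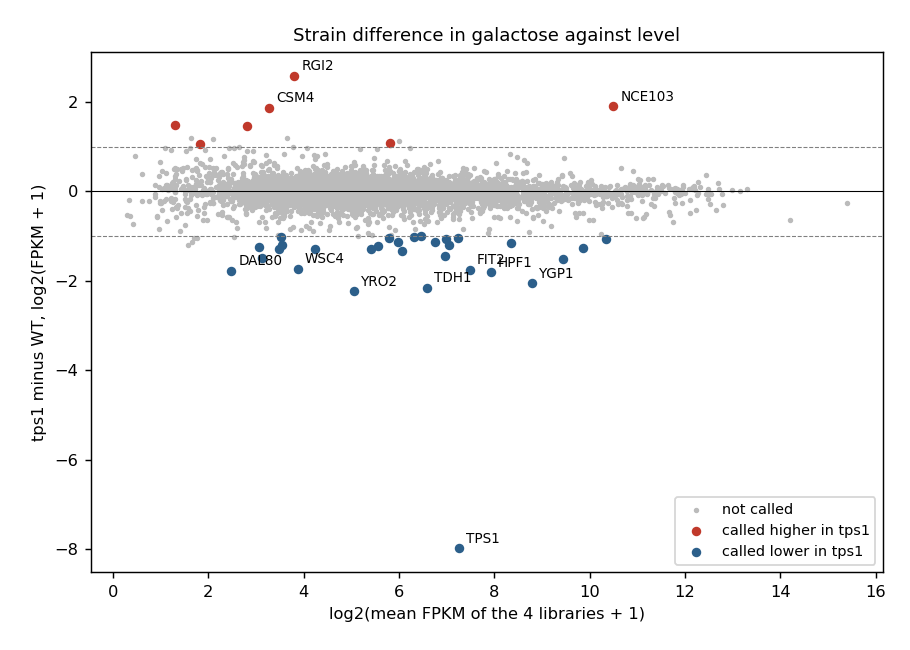
Difference between tps1 and WT (vertical axis, log2) against the mean level of the 4 libraries (horizontal axis, log2 of FPKM + 1), 1 point per gene of 5522. TPS1 lies alone at -7.98, the dashed lines mark 2-fold, and most genes lie close to 0.

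Of the 19 glycolysis genes 3 were called lower in tps1, all of them isozyme genes of the lower pathway. TDH1, TDH2 and TDH3 encode isozymes of glyceraldehyde-3-phosphate dehydrogenase, and ENO1 and ENO2 encode enolases. TDH1 had 34.0 and 30.9 FPKM in tps1, against 103 and 213 FPKM in WT, a difference of -2.16 ± 0.26 (limma adjusted p = 0.00214). The WT libraries themselves differed widely for this gene, and both still lay above both tps1 libraries. TDH2 had 561 and 519.8 FPKM in tps1, against 1164 and 1476 FPKM in WT (-1.28 ± 0.13, adjusted p = 0.00104). ENO1 had 346 and 361 FPKM in tps1, against 833 and 1219.5 FPKM in WT (-1.51 ± 0.16, adjusted p = 0.00129). In both isozyme genes the tps1 pair was tight and the WT pair spread, without overlap.

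The sister isozymes gave smaller values. TDH3, the most abundant of the 3, had 14666 and 14471 FPKM in tps1, against 19264 and 26957 FPKM in WT (-0.65, adjusted p = 0.0454), which is under 2-fold. ENO2 had 2650.3 and 2687 FPKM in tps1, against 3394 and 4415 FPKM in WT (-0.54, adjusted p = 0.0655). None of the 19 glycolysis genes was called higher, and the median was -0.49 against -0.000185 for all genes. In this list 18 lay below 0, and in 17 the 2 tps1 values lay below the 2 WT values. Of all genes in the fit, 23.7% had both tps1 values below both WT values, and 0.543% were called lower. Beside the 3 calls, TDH3, the pyruvate kinase gene CDC19 and the phosphoglycerate mutase gene GPM1 passed an adjusted p of 0.05 under 2-fold. Over all genes in the fit, 2.3% passed that adjusted p in either direction. The hexokinase genes at the top of the pathway were not called. HXK2 had 475 and 646 FPKM in tps1, against 589.8 and 593 FPKM in WT, so its strains overlapped. HXK1 had 589 and 1159 FPKM in tps1, against 1269 and 1295 FPKM in WT, and the tps1 libraries of this gene differed more from each other than the glucose-course library did from WT. The genes TDH1 to TDH3 are alike in sequence, as are ENO1 and ENO2, and reads may be shared between them, so the split between them is uncertain.

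Of the 25 iron regulon genes in the fit 4 were called lower in tps1 and none higher. The transcription factors Aft1 and Aft2 activate this regulon when iron is scarce, and they bind a short site whose core is CACCC, often within TGCACCC. FIT2 and FIT3 encode cell wall mannoproteins that hold iron-loaded siderophores, ARN1 encodes a siderophore transporter, and TIS11 encodes an RNA-binding protein that destroys messages of iron-using enzymes. These were the 4 called members, and all 4 have TGCACCC in the 300 bases before the start codon. The motif was searched as TGCACCC on both strands, and 1.3% of the 5521 windows of all genes hold it, against 14 of the 25 iron genes (56%). The shorter core CACCC, which TGCACCC contains, is in 19.5% of all windows. The stretch from 300 to 101 bases before each start codon is shown 5′ to 3′ on the strand of the gene, from the R64 genome (the sequence of sacCer3), with each match on either strand in capitals. FIT2 (chrXV:1059231-1059430, forward strand) has 3 matches, FIT3 (chrXV:1061156-1061355, reverse) and TIS11 (chrXII:416759-416958, reverse) have 2 each, and ARN1 (chrVIII:21072-21271, reverse) has 1. A match describes the letters and is not evidence of binding.
FIT2: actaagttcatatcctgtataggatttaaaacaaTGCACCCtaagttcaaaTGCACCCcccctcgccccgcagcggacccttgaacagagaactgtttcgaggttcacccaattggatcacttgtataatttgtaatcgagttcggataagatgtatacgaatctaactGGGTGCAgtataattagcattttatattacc
FIT3: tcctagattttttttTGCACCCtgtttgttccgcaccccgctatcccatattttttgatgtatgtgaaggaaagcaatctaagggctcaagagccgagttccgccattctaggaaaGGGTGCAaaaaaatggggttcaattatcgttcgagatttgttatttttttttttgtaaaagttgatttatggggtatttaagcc
TIS11: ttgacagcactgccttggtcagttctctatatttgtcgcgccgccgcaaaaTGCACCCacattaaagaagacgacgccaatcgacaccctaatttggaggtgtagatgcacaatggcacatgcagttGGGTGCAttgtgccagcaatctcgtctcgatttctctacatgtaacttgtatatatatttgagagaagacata
ARN1: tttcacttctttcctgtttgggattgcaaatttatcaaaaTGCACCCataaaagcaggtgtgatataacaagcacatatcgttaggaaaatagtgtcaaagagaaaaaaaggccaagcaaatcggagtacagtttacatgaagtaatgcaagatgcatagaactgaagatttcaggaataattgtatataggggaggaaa

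FIT2 had 90.8 and 72.4 FPKM in tps1, against 261 and 290.2 FPKM in WT (-1.75 ± 0.13, limma adjusted p = 0.000174). FIT3, its neighbour on chromosome XV with 448 bases between the 2 genes, had 77.1 and 56.1 FPKM in tps1, against 182 and 179 FPKM in WT (-1.45 ± 0.15, adjusted p = 0.00107). The FIT genes are alike in sequence, and reads may be shared between them. In both genes the tps1 library of the glucose course was the lowest of the 4. ARN1 had 26.9 and 20.6 FPKM in tps1, against 54.8 and 63.4 FPKM in WT (-1.29 ± 0.14, adjusted p = 0.00158). TIS11 had 4.06 and 3.21 FPKM in tps1, against 12.4 and 11.4 FPKM in WT (-1.48 ± 0.17, adjusted p = 0.00158). All 4 genes were called whichever library was left out.

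The median of the 25 iron genes was -0.37, 21 lay below 0, and 16 had both tps1 values below both WT values. At any fold 7 passed an adjusted p of 0.05, all of them lower. Among all genes in the fit, 23.7% had both tps1 values below both WT values. The all-gene shares were 2.3% at an adjusted p under 0.05 in either direction and 0.543% called lower. The multicopper ferroxidase gene FET3 had 497 and 365 FPKM in tps1, against 667 and 807 FPKM in WT (-0.78, adjusted p = 0.0319). Its partner FTR1, the high-affinity iron permease gene, had 397 and 356 FPKM in tps1, against 391.6 and 466 FPKM in WT, and these strains overlapped. The metalloreductase gene FRE1 lay at 10.5 and 11.04 FPKM in tps1, against 8.63 and 9.75 FPKM in WT, higher in tps1 in both libraries but not called. The zinc list, with 10 genes, had no call and a median of -0.12, and the phosphate list, with 19 genes, had no call and a median of -0.14.

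Of the 27 general stress genes in the fit 4 were called lower in tps1 and none higher. This set of genes is induced by many stresses and by slow growth through the factors Msn2 and Msn4, which bind the stress element AGGGG. At any fold 12 of the 27 passed an adjusted p of 0.05, all lower. The median was -0.52, 23 lay below 0, and in 20 both tps1 values lay below both WT values. For all genes in the fit, 23.7% had both tps1 values below both WT values. The all-gene shares were 2.3% at an adjusted p under 0.05 in either direction and 0.543% called lower. AGGGG, searched on both strands, is in the 300-base window of 22 of these 27 genes (81.5%), of 17 of the 30 genes called lower (56.7%), of 1 of the 7 called higher (14.3%), and of 22.3% of all 5521 windows. The windows of SPI1 (chrV:468070-468269, forward strand), a cell wall protein gene, and MSC1 (chrXIII:16777-16976, reverse strand), which have 2 matches each, show the motif in capitals over the same stretch as above.
SPI1: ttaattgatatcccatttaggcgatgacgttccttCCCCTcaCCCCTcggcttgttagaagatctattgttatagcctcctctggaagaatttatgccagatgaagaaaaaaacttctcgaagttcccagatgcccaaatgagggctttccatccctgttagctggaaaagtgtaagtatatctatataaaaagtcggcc
MSC1: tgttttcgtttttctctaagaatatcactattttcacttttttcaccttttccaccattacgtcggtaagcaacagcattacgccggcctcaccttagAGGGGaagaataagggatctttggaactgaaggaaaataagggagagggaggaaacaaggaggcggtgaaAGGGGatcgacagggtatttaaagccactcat

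SPI1 had 68.5 and 90.8 FPKM in tps1, against 183 and 185 FPKM in WT (-1.21 ± 0.14, limma adjusted p = 0.00191). YGP1, which encodes a secreted glycoprotein induced by nutrient limitation, had 138 and 208 FPKM in tps1, against 713 and 699 FPKM in WT (-2.05 ± 0.17, adjusted p = 0.00029). The window of YGP1 has no AGGGG, so the motif did not mark every called member. RTC3 had 28.4 and 46.7 FPKM in tps1, against 86.6 and 100.8 FPKM in WT (-1.33 ± 0.20, adjusted p = 0.00737). MSC1 had 57.7 and 56.8 FPKM in tps1, against 103 and 129.8 FPKM in WT (-1.0002 ± 0.13, adjusted p = 0.00372). MSC1 was the call closest to the 2-fold limit. It was not called without the tps1 or WT library of the glucose course, and RTC3 was not called without the tps1 library of the fructose course.

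Several other genes were lower in tps1 at an adjusted p under 0.05 but under 2-fold. RTN2 had 26.4 and 30.1 FPKM in tps1, against 54.9993 and 57.6 FPKM in WT (-0.97, adjusted p = 0.00214). The catalase gene CTT1 had 39.6 and 44.2 FPKM in tps1, against 71.8 and 82.2 FPKM in WT (-0.86, adjusted p = 0.00521). HSP12, an abundant membrane-protecting protein of stressed cells, had 1784 and 1759 FPKM in tps1, against 2728 and 2670.1 FPKM in WT (-0.61, adjusted p = 0.00984). The strains did not overlap in any of the 3. The factor genes themselves overlapped between strains: MSN2 had 46.9 and 63.3 FPKM in tps1, against 58.1 and 49.7 FPKM in WT, and MSN4 had 30.3 and 35.0 FPKM in tps1, against 31.5 and 31.3 FPKM in WT. Heat shock chaperones gave no call among 28 genes and a median of 0.05, with the small heat shock protein gene HSP26 at 11.8 and 19.3 FPKM in tps1, against 21.9 and 36.0 FPKM in WT (-0.85, adjusted p = 0.122).

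Of the 9 trehalose genes TPS1 was the only call, and it was also the only one at an adjusted p under 0.05. Among the other 8, the trehalose-6-phosphate phosphatase gene TPS2 had 70.0 and 88.8 FPKM in tps1, against 109 and 102 FPKM in WT (-0.42, adjusted p = 0.169). TSL1, a regulatory subunit gene of the synthase complex, had 82.6 and 112.5 FPKM in tps1, against 131 and 142 FPKM in WT (-0.50, adjusted p = 0.138). In 8 of the 9 genes, TPS1 included, both tps1 values lay below both WT values, and the trehalase gene NTH2 was the exception. Glycogen genes gave no call among 10, a median of -0.35, and 9 genes with both tps1 values below both WT values. Both tps1 values lay below both WT values in 23.7% of all genes. The glycogen phosphorylase gene GPH1 was the only glycogen gene at an adjusted p under 0.05, with 34.1 and 40.1 FPKM in tps1, against 68.8 and 79.6 FPKM in WT (-0.98, adjusted p = 0.00372).

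**Figure D3:**
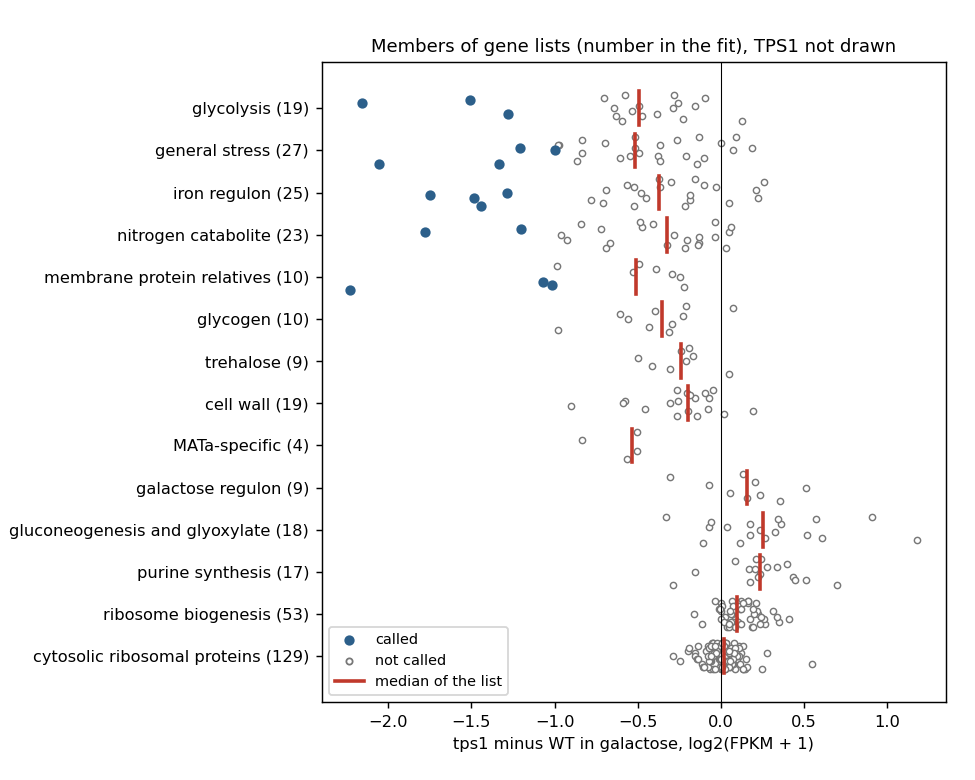
Difference between tps1 and WT in galactose (log2) for each member of 14 gene lists, with called genes filled, others open, and the median of each list as a red bar (TPS1 is not drawn). Medians of glycolysis (-0.49), general stress (-0.52), membrane protein relatives (-0.51) and iron genes (-0.37) lie left of 0, and those of gluconeogenesis (0.25) and purine synthesis (0.24) lie right of it with no called member.

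Genes under nitrogen catabolite control, which are turned on when good nitrogen sources run short, had 2 members called lower in tps1 and none called higher. DAL80 encodes a GATA-type repressor of these genes. It had 1.13 and 1.81 FPKM in tps1, against 10.0 and 5.40 FPKM in WT (-1.78 ± 0.27, limma adjusted p = 0.0098). These rest on about 7 and 11 fragments in tps1, against 72 and 32 in WT. DUR1,2 (DUR12 in the plots), the urea amidolyase gene, had 5.49 and 6.70 FPKM in tps1, against 13.8 and 16.9 FPKM in WT (-1.20 ± 0.16, adjusted p = 0.00397). The strains did not overlap in either gene. Of 23 genes these 2 were called, 8 passed an adjusted p of 0.05 at any fold, all lower, and the median was -0.32. Over all genes, 0.543% were called lower, and 2.3% passed an adjusted p of 0.05 in either direction. Among the 6 under 2-fold, the ammonium permease gene MEP2 had 689 and 975 FPKM in tps1, against 1566 and 1627 FPKM in WT (-0.96, adjusted p = 0.0098), and the allantoin pathway gene DAL3 had 153 and 168 FPKM in tps1, against 299.8 and 311 FPKM in WT (-0.93, adjusted p = 0.00198). GLN1, GDH1 and GLN3, for glutamine synthetase, glutamate dehydrogenase and a GATA activator, overlapped between the strains.

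The GATA motif GATAAG, searched on both strands, is in the 300-base window of 13 of the 23 nitrogen genes (56.5%) and of 14.7% of all 5521 windows. DAL80 (chrXI:506598-506797, forward strand) has 3 matches, shown in capitals from 300 to 101 bases before its start codon, and DUR1,2 has none.
DAL80: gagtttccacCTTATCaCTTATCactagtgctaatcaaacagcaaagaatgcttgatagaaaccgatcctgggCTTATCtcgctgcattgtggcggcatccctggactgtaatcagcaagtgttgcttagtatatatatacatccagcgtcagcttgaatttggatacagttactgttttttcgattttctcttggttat

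YRO2 and MRH1 encode related plasma membrane proteins of the HSP30 family. YRO2 had the smallest adjusted p after TPS1, with 10.9 and 10.5 FPKM in tps1, against 53.7 and 54.0 FPKM in WT (-2.23 ± 0.11, limma adjusted p = 7.26e-06). The 2 libraries of each strain nearly coincided. MRH1, a far more abundant message per length, had 824 and 837 FPKM in tps1, against 1542 and 1969 FPKM in WT (-1.07 ± 0.13, adjusted p = 0.00204), and it was not called without the WT library of the glucose course. The polyamine exporter gene TPO2 had 6.45 and 6.73 FPKM in tps1, against 14.1 and 14.6 FPKM in WT (-1.02 ± 0.14, adjusted p = 0.00416). TPO2 was not called without the tps1 library of the fructose course, without the WT library of the glucose course, or with equal FPKM sums. The 10 listed relatives, exporters and proton pumps all lay below 0, with 3 called and a median of -0.51, against 0.543% of all genes called lower. The plasma membrane proton pump gene PMA1 had 1453 and 1509 FPKM in tps1, against 1886 and 2296 FPKM in WT (-0.49, adjusted p = 0.0656).

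Cell surface genes outside these lists were also among the lowest. HPF1, which encodes a mannoprotein, had 127 and 88.5 FPKM in tps1, against 345 and 409 FPKM in WT (-1.81 ± 0.17, limma adjusted p = 0.000529). WSC4, a relative of the Wsc sensors of cell wall stress, had 5.49 and 6.03 FPKM in tps1, against 19.4 and 23.8 FPKM in WT (-1.73 ± 0.15, adjusted p = 0.000337). Its window holds 1 TGCACCC and 2 AGGGG. The 19 listed cell wall genes had no call and a median of -0.20, and 3 of them, CWP1, SUN4 and SCW11, were lower at an adjusted p under 0.05 and under 2-fold. Over all genes in the fit, 2.3% passed an adjusted p of 0.05 in either direction.

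The genes lower in tps1 also included the transporter genes HXT13 and STL1 and the gene DSF1. HXT13, a hexose and polyol transporter gene, had 3.31 and 4.55 FPKM in tps1, against 13.3 and 8.35 FPKM in WT (-1.24 ± 0.22, limma adjusted p = 0.0189). DSF1, its neighbour at 439 bases on chromosome V, is annotated as a mannitol dehydrogenase gene, was named after its values were seen, and had 7.07 and 13.6 FPKM in tps1, against 29.5 and 21.8 FPKM in WT (-1.28 ± 0.24, adjusted p = 0.0276). For both genes the tps1 library of the fructose course was the lowest and the WT library of the fructose course the highest, and neither call stood under every omission of a library. The glycerol and proton symporter gene STL1 had 94.7 and 68.7 FPKM in tps1, against 188 and 155 FPKM in WT (-1.07 ± 0.16, adjusted p = 0.00775), and was not called without the tps1 library of the glucose course or the WT library of the fructose course. No other member of the hexose transport and sensing list (14 genes) or the glycerol list (11 genes) was called, against 0.543% of all genes called lower. Of the 10 disaccharide use genes in the fit none was called, the median was 0.11, and 8 lay above 0, against 2759 of all 5522. HXT7, a high-affinity hexose transporter gene, overlapped between the strains, with 13.3 and 63.4 FPKM in tps1, against 35.5 and 33.8 FPKM in WT.

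The remaining calls lower in tps1 were picked out for naming after their values were seen. GAD1, the glutamate decarboxylase gene, had 26.5 and 28.1 FPKM in tps1, against 58.7 and 71.5 FPKM in WT (-1.22, limma adjusted p = 0.00117). HSP31, a methylglyoxal detoxifying enzyme gene, had 73.5 and 59.5 FPKM in tps1, against 149 and 144 FPKM in WT (-1.13, adjusted p = 0.00158). YNL134C, annotated as uncharacterized, had 198 and 205 FPKM in tps1, against 440.2 and 461 FPKM in WT (-1.15, adjusted p = 0.000529). The strains did not overlap in any of the 3, and HSP31 was not called without the tps1 library of the glucose course. YML131W, PNS1, EEB1, SAM3 and YMR254C completed the 30, with differences from -1.28 (YMR254C) to -1.01 (SAM3). Each of these 5 was not called in at least 1 of the fits with a library left out.

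Only 7 genes were higher in tps1, and RGI2 led them. RGI2 is known for its role in energy metabolism under respiratory growth. It had 19.7 and 25.99 FPKM in tps1, against 2.81 and 3.07 FPKM in WT, with means of 22.8 ± 4.45 in tps1 and 2.94 ± 0.188 in WT (SD, n = 2). The difference was 2.59 ± 0.17 (limma adjusted p = 5.1e-05), the groups did not overlap, and about 60.7 and 77.5 estimated fragments stood behind the tps1 values, against 10.1 and 9.15 in WT. Its paralog RGI1 was not called, with 96.0 and 108 FPKM in tps1, against 111.5 and 112 FPKM in WT (-0.13, adjusted p = 0.679).

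NCE103 encodes carbonic anhydrase, which turns carbon dioxide into bicarbonate. It had 2033 and 2447 FPKM in tps1, against 846 and 419 FPKM in WT (1.90 ± 0.25, limma adjusted p = 0.00416), the most abundant message per length among the 37 genes in tps1. The WT libraries differed about as much in FPKM as the tps1 libraries did, but more on the log2 scale used for the test. The groups did not overlap. The NCE103 call was lost under some alternatives, the course as a replicate block among them. CSM4, which is known to move telomeres in meiosis, had 16.8 and 11.6 FPKM in tps1, against 3.65 and 2.59 FPKM in WT (1.87 ± 0.21, adjusted p = 0.00158). YIG1, known for a part in glycerol production, had 11.9 and 6.75 FPKM in tps1, against 2.46 and 2.80 FPKM in WT (1.46 ± 0.24, adjusted p = 0.0114). YIG1 and CSM4 lie next to each other on chromosome XVI and are transcribed away from each other across 328 bases. They were the only neighbouring pair among the genes called higher, beside the pairs DSF1 with HXT13 and FIT2 with FIT3 among those called lower.

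PDH1 encodes a mitochondrial 2-methylcitrate dehydratase that works in the breakdown of propionate. It had 83.4 and 67.3 FPKM in tps1, against 33.5 and 36.8 FPKM in WT (1.07 ± 0.13, limma adjusted p = 0.00228), and it was not called without the tps1 library of the fructose course. The other retrograde response genes were not called, CIT2 included, at 180.1 and 269 FPKM in tps1, against 159.6 and 147 FPKM in WT (0.52, adjusted p = 0.182). YIR043C had 3.97 and 3.65 FPKM in tps1, against 1.199 and 1.45 FPKM in WT (1.05 ± 0.22, adjusted p = 0.0445), and it was called in 1 of the 4 fits with a library left out and lost under 9 of 13 alternatives. YLR415C had 2.54 and 2.70 FPKM in tps1, against 0 and 0.691 FPKM in WT, values that rest on about 3.95 and 3.93 fragments in tps1, against 0 and 1.04 in WT. Its adjusted p was 0.0484, and the call was lost under 10 of the 13 alternatives that tested it.

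Gluconeogenesis and glyoxylate genes gave no call among 18 and a median of 0.25. In this list 14 genes lay above 0, 9 had both tps1 values above both WT values and 1 had both below. The shares of all genes were 21.2% with both above and 23.7% with both below. At an adjusted p under 0.05 and under 2-fold, 2 were higher in tps1 and none lower. Over all genes in the fit, 2.3% passed that adjusted p in either direction. The carnitine acetyltransferase gene YAT2 had 42.7 and 46.0034 FPKM in tps1, against 29.2 and 29.7 FPKM in WT (0.57, limma adjusted p = 0.029), and ATO3, an ammonium transporter gene, had 116 and 122 FPKM in tps1, against 69.2 and 87.8 FPKM in WT (0.60, adjusted p = 0.0475). The strains did not overlap in either gene. The succinate and fumarate carrier gene SFC1 had 24.1 and 9.70 FPKM in tps1, against 5.22 and 7.39 FPKM in WT (1.18, limma adjusted p = 0.109), and the alcohol dehydrogenase gene ADH2 had 126 and 52.6 FPKM in tps1, against 31.6 and 43.2 FPKM in WT (1.12, adjusted p = 0.12). In both genes the tps1 library of the fructose course stood far above the other 3. The transcription factor gene ADR1, an activator of ADH2, had 66.6 and 75.3 FPKM in tps1, against 47.1 and 47.7 FPKM in WT (0.57, adjusted p = 0.0341), which is under 2-fold. Tricarboxylic acid cycle genes (17) and nuclear respiratory chain and ATP synthase genes (27) gave no call.

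Several further lists held small differences at an adjusted p under 0.05 and under 2-fold. In de novo purine synthesis 15 of 17 genes lay above 0 with a median of 0.24, and ADE1 had 529 and 440.4 FPKM in tps1, against 298 and 296 FPKM in WT (0.70, limma adjusted p = 0.0138). In the galactose regulon GCY1, a glycerol dehydrogenase gene under Gal4 control, had 1909.9 and 1894 FPKM in tps1, against 1381.5 and 1286 FPKM in WT (0.51, adjusted p = 0.029). Among genes of late mitosis and cell separation, the cyclin gene CLB1 (-0.69, adjusted p = 0.0115) and the daughter cell glucanase gene DSE2 (-0.65, adjusted p = 0.0195) were lower in tps1. The 4 MATa-specific genes in the fit all lay below 0, and BAR1 (-0.84, adjusted p = 0.0381) and STE2 (-0.56, adjusted p = 0.029) passed the adjusted p under 2-fold, while the haploid list (10 genes) had a median of 0.01. In bulk RNA a smaller share of cells with a message and less message per cell cannot be told apart. Ribosome biogenesis (53 genes, median 0.10, 48 above 0) and cytosolic ribosomal protein genes (129 genes, median 0.02) gave no call. Of all 5522 genes in the fit, 2759 lay above 0 and 2763 below, and 2.3% passed an adjusted p of 0.05 in either direction. Across all 42 lists, 10 held a called gene and 32 held none, and 21 of the 37 called genes were members of a list.

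Short and unmatched genes were treated apart because their values scatter more. The SD of the log2 difference between the 2 libraries of a strain was 1.17 in tps1 and 1.27 in WT over 681 such genes, against 0.246 in tps1 and 0.224 in WT over the 5522 others. In 7 of the 681, at least 1 library was listed at 0 while another passed 100 FPKM, YHR032C-A among them, where both tps1 libraries were at 0. In a limma fit of all 6203 genes past the filter, 8 were called (0.129%), 4 of them among these 681 (0.587%), all lower in tps1. YHR032C-A was listed at 0 in both tps1 libraries and had 161 and 230.3 FPKM in WT (adjusted p = 0.00366). YOL083C-A was listed at 0 in both tps1 libraries and had 25.3 and 35.7 FPKM in WT (adjusted p = 0.0104). The tps1 libraries also listed YFL041W-A at 0, against 10.2 and 8.97 FPKM in WT (adjusted p = 0.0104), and YHR213W-A at 0, against 4.60 and 3.90 FPKM in WT (adjusted p = 0.0327). YFL041W-A and YHR213W-A are under 300 bp, and the other two were not matched to the annotation, so their lengths are not known here. A listed 0 can be a failed estimate, so no fold is given.

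The differences in galactose were then set against the strain differences after sugar, as the mean of 14 matched pairs from 3 to 120 min. Of the 30 genes lower in tps1 in galactose, 12 were lower in tps1 in all 14 later pairs, TPS1, WSC4, DAL80, ARN1, TDH2, YRO2 and MRH1 among them. Of the 7 higher genes, 5 were higher in all 14 later pairs (RGI2, NCE103, CSM4, YIG1 and PDH1). The share of all genes that kept a direction over these pairs is not given here. The pairs of a course are serial samples, so their agreement does not count as independent repeats. RGI2 averaged 3.86 after sugar, with pairs from 3.11 to 4.51, and 2.59 in galactose. WSC4 averaged -2.29 after sugar, with pairs from -3.06 to -1.47, and -1.73 in galactose. In 5 of the 30 lower genes the mean after sugar lay above 0, namely STL1, HXT13, DSF1, MSC1 and GAD1. STL1 averaged 1.63 after sugar, with pairs from -1.005 to 3.42, against -1.07 in galactose (adjusted p of the change = 0.0893).

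In a limma fit of the 16 matched strain differences, the galactose difference differed from the later mean by at least 2-fold at an adjusted p under 0.05 in 465 of 5522 genes (8.42%) and in 7 of the 37. The galactose difference was the higher value in 283 genes (5.12%), MRH1 and TPO2 of the 37 among them, and the lower value in 182 (3.3%), with the other 5 of the 37. DSF1 was lower in tps1 in galactose (-1.28) and higher in tps1 in 14 of 14 later pairs (mean 2.53, adjusted p of the change = 0.00283). HXT13 was lower in tps1 in galactose (-1.24) and higher in 13 of 14 later pairs (mean 1.05, adjusted p = 0.00813). MSC1 had a difference of -1.0002 in galactose and a mean of 0.40 after sugar (adjusted p = 0.0405). MRH1 and TPO2 were lower in tps1 throughout and further from WT after sugar, with MRH1 at -1.07 in galactose and -2.997 after sugar (adjusted p = 0.031), and TPO2 at -1.02 in galactose and -4.68 after sugar (adjusted p = 0.0307). TIS11 lay closer to WT after sugar, at -1.48 in galactose and -0.41 after it (adjusted p = 0.0418). Serial samples of a course are not independent cultures, so these p-values describe spread over times. The 37 were also picked by their galactose difference, which is part of this contrast. A later value closer to WT can follow from that choice, and 7 of 37 cannot be weighed against 8.42%.

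**Figure D4:**
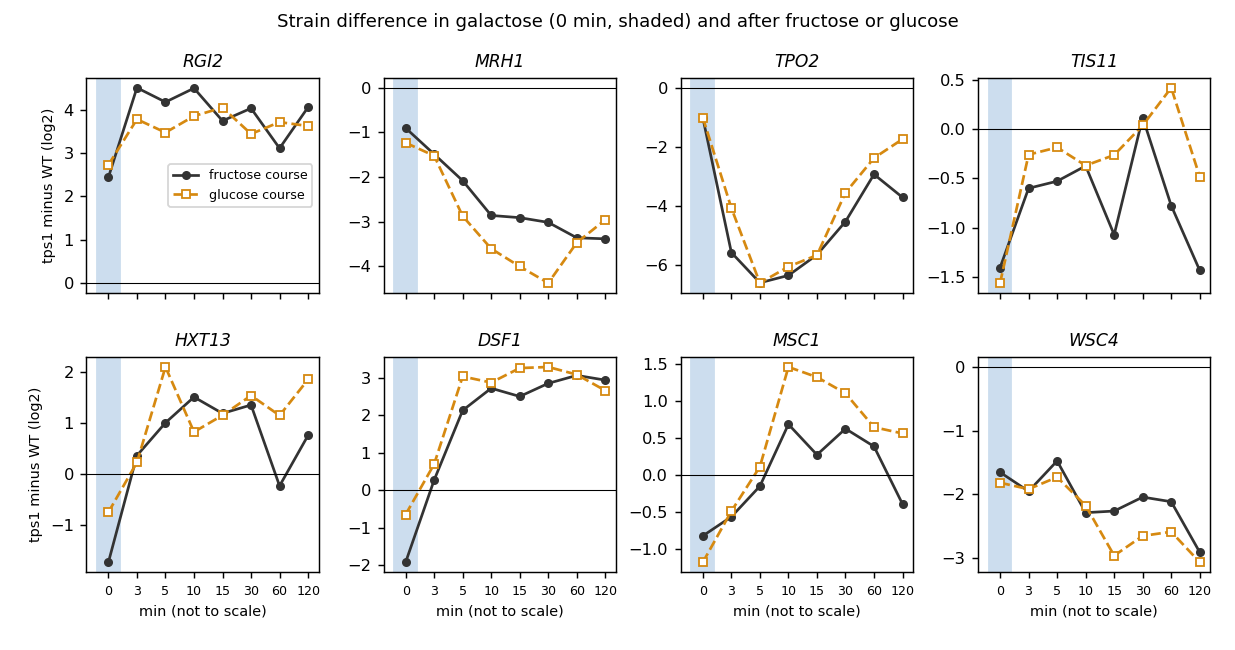
Strain difference (tps1 minus WT, log2) of 8 called genes at 0 min in galactose, shaded, and at 7 times after fructose (filled circles) or glucose (open squares), with times not drawn to scale. RGI2 stays above 0 and WSC4, MRH1 and TPO2 stay below it, while HXT13, DSF1 and MSC1 start below 0 and average 1.05, 2.53 and 0.40 after sugar.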

How the data were processed

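Poly-A RNA libraries were made with a stranded kit after hot acidic phenol extraction, per the labels' protocols. Per the submitters' processing notes, CASAVA 1.4, TopHat2 and Cuffnorm were used with the sacCer3 build. The authors deposited 1 table of FPKM for 6717 genes in 32 columns, all matched to the labels. Neither the scaling by Cuffnorm nor the strand setting of the counting is given in the sources used here. No fragment counts were analysed.

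Of 6717 genes 6025 matched the reference annotation (R64), and 1 row that named no gene was not used. Values were log2(FPKM + 1). The 4 galactose libraries were fitted without covariates in limma 3.58.1 (R 4.3.3, prior variance following the mean level). The fit took 5522 matched genes, 300 bp or longer, averaging 1 FPKM or more across the 32 libraries. Calls needed a Benjamini-Hochberg adjusted p under 0.05 and at least 2-fold. The code was tested on simulated data with known changes. The change of the strain difference after sugar was tested by limma on the 16 paired differences (same sugar course, same minute).

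Depth was estimated from the step between low FPKM values, using lengths from 900 to 8000 bp and values worth 8 fragments or fewer. Between 91.1% and 97.4% of 34 to 45 such values per library lay within 0.1 of a whole number, which describes the fit. Depth limits low genes most, since 1 fragment over 1 kb was worth 0.0877 to 0.106 FPKM. Motifs were counted in the 300 bases before the start codon, and 99.8% of these windows were followed by ATG. The 100 bases next to the start codon are not shown.

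Genes were named by a rule: TPS1 and 3 neighbours on each side, the 12 highest and 12 lowest calls, up to 4 called members of each of 42 lists or the 2 members furthest from 0, the 4 highest and 4 lowest calls among short or unmatched genes, and fixed genes. Other members were named after their values were seen. The comparison, the members and the lists were chosen with earlier results of these data known. Alternatives were other pseudocounts, filters, scalings, no trend, other gene sets and spreads, a block for the course, and each library left out. Plots used matplotlib 3.10.9, and joins used pandas 2.3.3 and numpy 2.4.6 under Python 3.11.15.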

Additional observations from a re-analysis of the deposited data

Results flagged for a closer look

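In 7 of the 37 genes called in galactose the strain difference in galactose differed from that after sugar, by a limma fit of the matched differences, with the value given here being the galactose difference minus the mean of the 14 later ones (log2). That value was 1.928 for MRH1 and 3.665 for TPO2, whose differences were larger below 0 after sugar. It was -2.293 for HXT13, -3.807 for DSF1 and -1.401 for MSC1, which lay below 0 in galactose and above 0 on average after sugar. For RGI2 it was -1.278, with tps1 above WT in both states. For TIS11 it was -1.072, with the difference closer to 0 after sugar. Of all genes in the fit, 8.42% passed the same rule. The 37 were picked by their galactose difference, which is also 1 side of this contrast. Their share therefore cannot be weighed against that of all genes.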

How the results depend on the processing

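No called gene changed sign under any alternative run, and 1 of 37, TPS1, was called under all of them. The strains did not overlap in any of the 37, so leaving out 1 library could not turn a sign. The kept signs therefore add no support to the calls. The count of calls (37, 7 higher and 30 lower) was 24 with 3 higher at a pseudocount of 5 (18 of the genes named by rule against 28), and 3 with 0 higher and 3 lower without the filter on low values (2 named genes and 2 list members, against 21). With short and unmatched genes in the fit it was 4 with 1 higher and 3 lower (3 named, 3 in lists), and with the spread taken from 16 matched differences 3 with 1 higher and 2 lower (3 named, 2 in lists). A minimum mean of 10 FPKM left 2 higher. Leaving out each library in turn gave 43 to 65 calls, 10 to 20 higher and 26 to 45 lower, 25 to 32 named genes and 22 to 32 list members, and kept 29 to 34 of the 37 (a lone library is then assumed to vary like the others). The course as a replicate block gave 28 calls, 3 of them higher. The labels do not say that a course pairs the strains, and deviations within a course correlated at 0.06. Late times alone gave 921 genes whose difference changed after sugar, against 465 with all times. For these changes in counts the cause was not tested. Signs of 12 uncalled genes turned when 1 library was left out, with these lowest and highest values: HXK2 -0.314 and 0.126, GAL2 -0.222 and 0.0817 (0.0525 without the tps1 library of the fructose course), GAL1 -0.0211 and 0.133, MIG1 -0.0314 and 0.174, NRG1 -0.726 and 0.0511, PAU13 -0.317 and 1.253, MF(ALPHA)1 -0.81 and 0.379, MF(ALPHA)2 -0.0955 and 0.2303, SUC2 -0.376 and 0.4698 (-0.0232 without the WT library of the fructose course), MSN2 -0.193 and 0.233 (-0.0897 without the WT library of the glucose course), MSN4 -0.051 and 0.153, and HAP1 -0.0313 and 0.2404. Depth limits genes near 1 FPKM, where a few fragments set the value.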
